A study of Mus musculus with 13 samples.

Results

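Apolipoprotein genes were followed in mouse liver 7 days after bile duct ligation (BDL), the surgical closure of the bile duct that causes cholestasis. The 10 genes, Apoa1, Apoa2, Apoa4, Apoa5, Apob, Apoc1, Apoc3, Apoe, Apof and Apom, were found by matching the Entrez gene numbers of the deposited count tables to mouse symbols. They are 10 of 23725 genes in the largest table, and all 10 passed the filter on low counts in each of the 3 comparisons.

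Apolipoproteins are the proteins of lipoproteins, the particles that carry cholesterol and triglyceride in blood. Hepatocytes make most of them, and in mice the intestine is a further source of some, Apoa4 and Apob among them. apoA-I and apoA-II are the main proteins of high-density lipoprotein (HDL), apoB is the scaffold of very low-density lipoprotein (VLDL) and its remnants, and apoE and the apoC proteins move between particles and control how they are hydrolysed and cleared.

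Livers were from male C57 mice, 3 months old and wild-type for Gnmt by the study's methods. The no BDL group (n = 5) was labelled as not treated. The miR-Ctrl BDL group (n = 4) and the anti-miR-873-5p BDL group (n = 4) had BDL and were injected in the tail vein with 60 µg per mouse of a control hairpin oligonucleotide or of a hairpin inhibitor of miR-873-5p, on days 3 and 5, carried by Invivofectamine. Changes with miR-Ctrl or with anti-miR-873-5p below are those of these BDL groups against no BDL, on the log2 scale. Since the no BDL mice had neither surgery nor oligonucleotide by their labels, these cannot be told apart in comparisons with them. In RNA from whole liver, fewer hepatocytes and less RNA per hepatocyte cannot be told apart either.

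The tables hold 12185333 to 19689037 counts per mouse, and the 10 apolipoprotein genes had between 1193 and 254119 counts each. Values of single mice are normalized counts, that is counts divided by the library size after scaling with edgeR's TMM over all 13 mice and brought to a common size. That library size was summed over the genes kept by the filter on low counts. The deposited table of both BDL groups holds 3 mice per group and lacks anti-miR-873-5p mouse 2 and miR-Ctrl mouse 3, and the study's methods state that outliers were filtered without naming them. These 2 mice stood apart in the apolipoprotein genes themselves, so comparisons with no BDL are given with and without them. All 8 hepatocyte markers were detected in every group, with summed levels of 92465 to 112954 without BDL, 41595 to 71931 in miR-Ctrl BDL and 36938 to 83812 with the inhibitor. Of them, 6 fell in miR-Ctrl BDL and 3 in anti-miR-873-5p BDL, while all 5 cholangiocyte markers rose in both, with summed levels of 45.7 to 133, 481 to 1720.0 and 232 to 1664 in the same order. The 6 macrophage markers summed to 119 to 659, 524 to 1432 and 376 to 1332, and 5 of them rose in miR-Ctrl BDL and 1 in anti-miR-873-5p BDL. Without anti-miR-873-5p mouse 2, 5 hepatocyte markers fell and 3 macrophage markers rose. The part of these shifts in cell markers in the apolipoprotein values was not tested.

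Sequences are shown first for the gene cluster on chromosome 9, which holds 4 of the 10 genes within a short stretch, and for the microRNA that was inhibited. Promoter windows of 300 bases were at hand in RefSeq for 7 of the 10 genes, not for Apoc1, Apoc3 and Apof. Those of Apoa4, Apoa5 and their neighbour Apoa1 are printed from 250 bases before the start site, on the + strand of GRCm38.p6. Of the 10 genes, Apoa4 and Apoa5 stood highest in the 2 mice named above relative to the other mice of their groups. Capitals mark a motif of the HNF4 type in Apoa4 and a TATAAA in Apoa5.
Apoa4 (chr9:46240594-46240893): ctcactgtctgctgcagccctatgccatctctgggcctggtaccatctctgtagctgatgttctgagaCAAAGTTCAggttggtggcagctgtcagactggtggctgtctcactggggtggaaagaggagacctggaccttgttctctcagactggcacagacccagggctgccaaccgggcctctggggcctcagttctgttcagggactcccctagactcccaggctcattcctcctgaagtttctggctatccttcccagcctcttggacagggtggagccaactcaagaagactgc
Apoa5 (chr9:46268358-46268657): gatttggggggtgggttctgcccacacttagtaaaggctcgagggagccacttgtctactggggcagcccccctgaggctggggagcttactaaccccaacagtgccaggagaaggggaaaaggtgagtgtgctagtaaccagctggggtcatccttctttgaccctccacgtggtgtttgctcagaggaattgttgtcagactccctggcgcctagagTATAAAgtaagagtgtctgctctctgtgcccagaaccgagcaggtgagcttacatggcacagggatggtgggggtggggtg
Apoa1 (chr9:46228380-46228679): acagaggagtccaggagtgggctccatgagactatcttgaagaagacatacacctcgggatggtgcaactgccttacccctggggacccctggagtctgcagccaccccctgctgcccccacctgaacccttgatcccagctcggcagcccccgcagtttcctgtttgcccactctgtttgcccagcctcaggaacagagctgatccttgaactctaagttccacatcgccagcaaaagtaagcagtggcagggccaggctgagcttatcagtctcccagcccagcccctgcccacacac

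HNF4 is a nuclear receptor of hepatocytes, and the 3 forms of its motif searched on both strands were CAAAGGTCA, CAAAGTTCA and CAAAGTCCA, which cannot overlap as whole words at the same position. They were chosen after the Apoa4 promoter had been read. Of 32851 promoter windows of this length, 1.33% held any of the 3, and of the 7 apolipoprotein genes with a window only Apoa4 did, with CAAAGTTCA beginning 182 bases before the start. TATAAA was in 13.6% of all windows on either strand, and in the printed Apoa5 window it began 31 bases before the start. Another Apoa5 window held it 56 bases before its start, and windows of Apoa2, Apoe and Apob held it as well. A match to such letters describes the window and is no evidence of binding.

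The inhibited microRNA is printed in RNA letters, with its seed, bases 2 to 8 from its 5′ end, in capitals. It lies at chr4:36668556-36668576 on the - strand of GRCm38.
mmu-miR-873a-5p: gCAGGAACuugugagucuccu

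The 7 letters that pair with this seed, GTTCCTG, were found in the annotated 3′ untranslated regions of 0 of the 10 apolipoprotein genes, whose lengths ran from 64 bases in Apoa1 to 1185 in Apoa5. Over all 21153 genes with such a region, 15.4% held them. The 136 bases of this region in Gnmt, the gene whose targeting the study examined, did not hold them either, so a missing match says only that these letters are not in the window used.

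The apolipoprotein genes differed widely in level, which is compared between genes only per kilobase of exon. Without BDL the median normalized count per kilobase was 12196 for Apoa2, 7988 for Apoe and 7472 for Apoa1, followed by 3705 for Apoc1 and 1565 for Apoc3. Apoa5 and Apof came next with 584 and 499.5, then Apob with 228, Apom with 189 and Apoa4 with 86.6. With means of 8275 ± 748 and 7470.1 ± 635 (± SD, n = 5), Apoe and Apoa1 lay within 2 standard deviations of each other, as did Apoa5 with 573 ± 109 and Apof with 518 ± 77.7, and Apob with 241 ± 25.7 and Apom with 198 ± 25.8. In miR-Ctrl BDL Apoa2 no longer led the order, with a median of 2993 per kilobase behind Apoe with 4659 and Apoa1 with 4479.6. In anti-miR-873-5p BDL Apoe led with 5991, and Apoa1 and Apoa2 had 4359.9 and 4267.

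**Figure D1:**
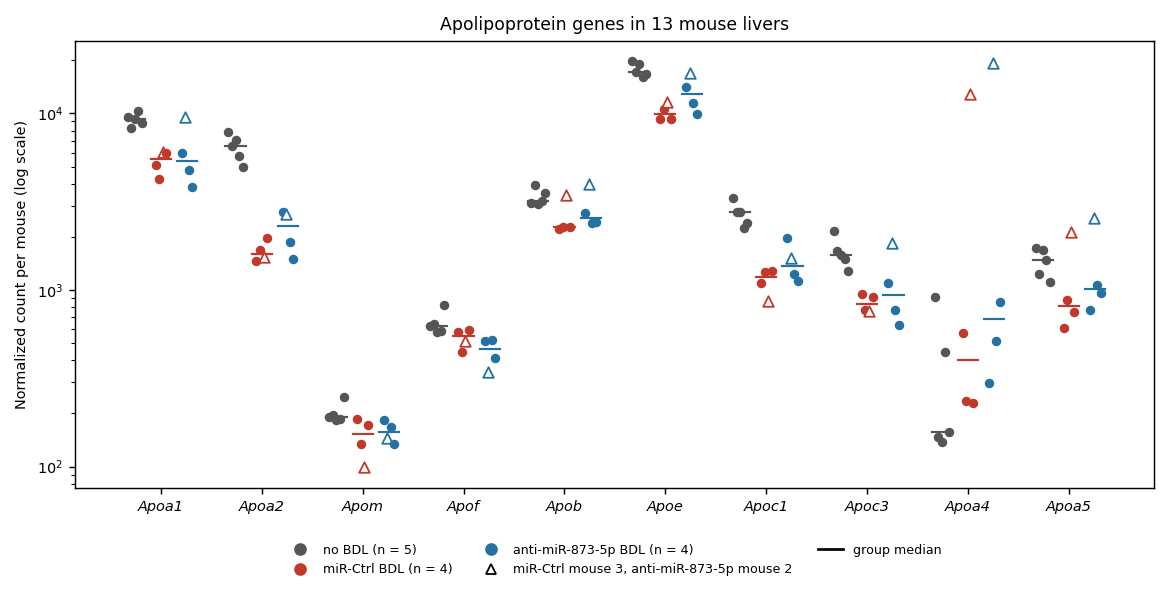
Normalized count of each apolipoprotein gene in each of the 13 mice on a logarithmic axis, grouped by no BDL (n = 5), miR-Ctrl BDL (n = 4) and anti-miR-873-5p BDL (n = 4), with group medians as bars and anti-miR-873-5p mouse 2 and miR-Ctrl mouse 3 as open triangles. Apoa2 and Apoc1 were lower in all 8 BDL mice than in the 5 mice without BDL, and Apoa4 reached 19230.0 and 12859 in the 2 mice drawn as triangles.

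After BDL with the control oligonucleotide, 5 of the 10 genes fell and 0 rose at an adjusted p of 0.05 in edgeR's quasi-likelihood test. These were Apoa1, Apoa2, Apoc1, Apoc3 and Apoe. Over all genes tested, 35.7% passed in either direction and 16.6% passed with a lower level. The 5 genes that fell were also those whose 4 miR-Ctrl BDL mice all lay below the 5 mice without BDL, which held for 14.8% of all genes. The median log2 fold change of the 10 genes was -0.59, against -0.011 for all genes. Without miR-Ctrl mouse 3, 7 genes fell and 0 rose, against 20.1% of all genes lower, and Apoa5 and Apob joined the others.

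After BDL with anti-miR-873-5p, 2 of the 10 genes fell, Apoa2 and Apoc1, and 0 rose. Of all genes tested, 21.5% passed in either direction and 8.44% passed with a lower level. Apoa2, Apoc1 and Apof had all 4 treated mice below the 5 mice without BDL, which held for 8.23% of all genes. The median log2 fold change of the 10 genes was -0.46, against -0.007 for all genes. Without anti-miR-873-5p mouse 2, 4 genes fell, Apoa1 and Apoc3 in addition, against 13.4% of all genes lower. Both comparisons share the 5 mice without BDL, so their values are not independent.

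Between the 2 BDL groups, with 3 mice each, 0 of the 10 genes passed, as did 0.0% of all genes in edgeR's test. At an unadjusted p of 0.05, 0 of the 10 genes and 6.28% of all genes passed. DESeq2's Wald test called 29 of all genes and 0 of the 10. The 6 mice did not overlap for Apob alone among the 10, and for 11.4% of all genes.

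Both main HDL genes fell in miR-Ctrl BDL. Apoa1 (Entrez gene 11806, chr9:46228630-46230469, + strand) encodes apoA-I, which activates lecithin-cholesterol acyltransferase and takes up cholesterol from cells. Its normalized counts were 9526, 8262, 9235, 10347 and 8794 in the mice without BDL, 5081, 4223, 6054 and 5993 in miR-Ctrl BDL and 5973, 9524, 4805 and 3842 in anti-miR-873-5p BDL, each in the order of the mouse numbers. All 4 miR-Ctrl BDL mice lay below the 5 mice without BDL, whereas anti-miR-873-5p mouse 2 reached their range and the other 3 did not. Apoa1 fell by 0.77 log2 units with miR-Ctrl (SE 0.20, adjusted p = 0.0144 in edgeR's test). With anti-miR-873-5p the log2 fold change was -0.60 (SE 0.30, adjusted p = 0.184), and without mouse 2 it was -0.90 with an adjusted p of 0.0229.

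Apoa2 (Entrez gene 11807, chr1:171221564-171226379, + strand) encodes apoA-II, the second HDL protein by abundance. It had 7814, 6549, 7052, 5714 and 4987 normalized counts without BDL, 1458, 1681, 1533 and 1961 in miR-Ctrl BDL and 2771, 2703, 1879.7 and 1501 in anti-miR-873-5p BDL. The 8 BDL mice all lay below the lowest mouse without BDL, and the BDL groups overlapped each other. Group means were 6423 ± 1108, 1658 ± 222 and 2214 ± 624 (± SD). Apoa2 fell by 1.93 log2 units with miR-Ctrl (SE 0.21, adjusted p = 0.000238) and by 1.51 with anti-miR-873-5p (SE 0.27, adjusted p = 0.00577). It passed in all 9 fits that left out 1 mouse in each of these comparisons.

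The ratio of Apoa1 to Apoa2 within a library does not depend on how libraries are scaled. Per kilobase it was 0.53, 0.548, 0.569, 0.787 and 0.766 without BDL, 1.51, 1.09, 1.72 and 1.33 in miR-Ctrl BDL and 0.936, 1.53, 1.11 and 1.11 in anti-miR-873-5p BDL. The mice without BDL all lay below 1, and each of the 8 BDL mice had a higher ratio than any of them. This ratio was chosen after the values had been seen and was not tested.

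Of the minor HDL genes, Apom and Apof, neither passed in any comparison in edgeR's test with TMM on the mice of each table. Apom (Entrez gene 55938, chr17:35128997-35131801, - strand) encodes apoM, the carrier of sphingosine-1-phosphate on HDL, and had 191, 196, 183, 187 and 247 normalized counts without BDL. In miR-Ctrl BDL it had 187, 135, 99.1 and 172 and in anti-miR-873-5p BDL 185, 144, 168 and 134. The groups overlapped, with mouse 5 of the no BDL group above all others. The log2 fold changes against no BDL were -0.41 (SE 0.19, adjusted p = 0.12) and -0.32 (SE 0.15, adjusted p = 0.148), and neither passed.

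Apof (Entrez gene 103161, chr10:128268699-128271250, + strand) encodes apoF, a minor protein of HDL. It had 628, 644, 577, 587 and 819 normalized counts without BDL, 582, 447, 512 and 592 in miR-Ctrl BDL and 515, 341, 524 and 414 in anti-miR-873-5p BDL. The anti-miR-873-5p BDL mice all lay below the mice without BDL, whereas 2 of the miR-Ctrl BDL mice lay within their range. The log2 fold change was -0.26 (SE 0.15, adjusted p = 0.204) in miR-Ctrl BDL and -0.51 (SE 0.19, adjusted p = 0.082) with anti-miR-873-5p. With the inhibitor Apof passed in DESeq2's Wald test at -0.50 (adjusted p = 0.0228). In 1 edgeR fit of all 13 mice it passed at -0.54 (adjusted p = 0.0386). The difference between the BDL groups was -0.16 (SE 0.18, adjusted p = 0.885).

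Apob (Entrez gene 238055, chr12:7977629-8016839, + strand) encodes the structural protein of VLDL. Its normalized counts were 3123, 3911, 3054, 3183 and 3530.4 without BDL, 2211, 2286, 3462 and 2272 in miR-Ctrl BDL and 2712, 4005, 2385 and 2428 in anti-miR-873-5p BDL. In both BDL groups 3 mice lay below every mouse without BDL, and the mouse absent from the table of both groups lay within or above their range. The log2 fold change in miR-Ctrl BDL was -0.37 (SE 0.19, adjusted p = 0.159) with all mice and -0.55 (SE 0.15, adjusted p = 0.0145) without mouse 3. With anti-miR-873-5p it was -0.20 (adjusted p = 0.557), and -0.40 (adjusted p = 0.129) without mouse 2. Between the BDL groups the 3 anti-miR-873-5p mice of the table lay above the 3 miR-Ctrl mice, by 0.15 on the log2 scale (SE 0.17, adjusted p = 0.887).

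Among the genes of proteins that move between particles, Apoe had the highest level per kilobase. Apoe (Entrez gene 11816, chr7:19696244-19701310, - strand) encodes apoE, the ligand through which remnants bind receptors on cells, and macrophages make it as well as hepatocytes. It had 19785, 17078, 18945, 16037 and 16613 normalized counts without BDL, 9308, 10575, 11626 and 9345 in miR-Ctrl BDL and 14149.8, 16881, 11467 and 9900.4 in anti-miR-873-5p BDL. All 4 miR-Ctrl BDL mice lay below the mice without BDL, and of the anti-miR-873-5p BDL mice only mouse 2 reached them. Apoe fell by 0.77 log2 units with miR-Ctrl (SE 0.22, adjusted p = 0.0198), and the call was lost in 3 of the 9 fits that left out 1 mouse, which were those without no BDL mouse 1 or miR-Ctrl BDL mouse 1 or 4, with adjusted p up to 0.062. With anti-miR-873-5p its log2 fold change was -0.41 (SE 0.28, adjusted p = 0.329).

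Apoc1 (Entrez gene 11812, chr7:19689480-19692659, - strand) is the neighbour of Apoe and encodes apoC-I, a small protein that hinders the uptake of remnants. It had 3326, 2758, 2757, 2257 and 2393 normalized counts without BDL, 1098, 1259.7, 871 and 1277 in miR-Ctrl BDL and 1959, 1525, 1226 and 1118 in anti-miR-873-5p BDL. The 8 BDL mice lay below the 5 mice without BDL. Apoc1 fell by 1.23 log2 units with miR-Ctrl (SE 0.19, adjusted p = 0.00121) and by 0.86 with anti-miR-873-5p (SE 0.23, adjusted p = 0.0268). The second call held in 4 of 9 fits that left out 1 mouse and was lost without no BDL mouse 1, 2 or 3 or anti-miR-873-5p BDL mouse 3 or 4, with adjusted p up to 0.0901.

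Within a library, the ratio of Apoc1 to Apoe per kilobase was 0.483, 0.464, 0.418, 0.404 and 0.414 without BDL. It was 0.339, 0.342, 0.215 and 0.393 in miR-Ctrl BDL and 0.398, 0.26, 0.307 and 0.324 in anti-miR-873-5p BDL. Each BDL mouse had a lower ratio than any mouse without BDL, and the lowest value in each BDL group was that of the mouse absent from the table of both. This ratio too was chosen after the values had been seen and was not tested.

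Apoc3 (Entrez gene 11814, chr9:46233050-46235636, - strand) lies between Apoa1 and Apoa4 and encodes apoC-III, an inhibitor of lipoprotein lipase. It had 2168, 1662, 1587, 1501 and 1274 normalized counts without BDL, 953, 768, 759 and 908 in miR-Ctrl BDL and 1098, 1851, 770.3 and 637 in anti-miR-873-5p BDL. All 4 miR-Ctrl BDL mice and 3 of the anti-miR-873-5p BDL mice lay below the mice without BDL, and anti-miR-873-5p mouse 2 lay within their range. Apoc3 fell by 0.93 log2 units with miR-Ctrl (SE 0.18, adjusted p = 0.00388). With anti-miR-873-5p the log2 fold change was -0.59 (SE 0.31, adjusted p = 0.206) with all mice and -0.96 (SE 0.24, adjusted p = 0.0168) without mouse 2.

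**Figure D2:**
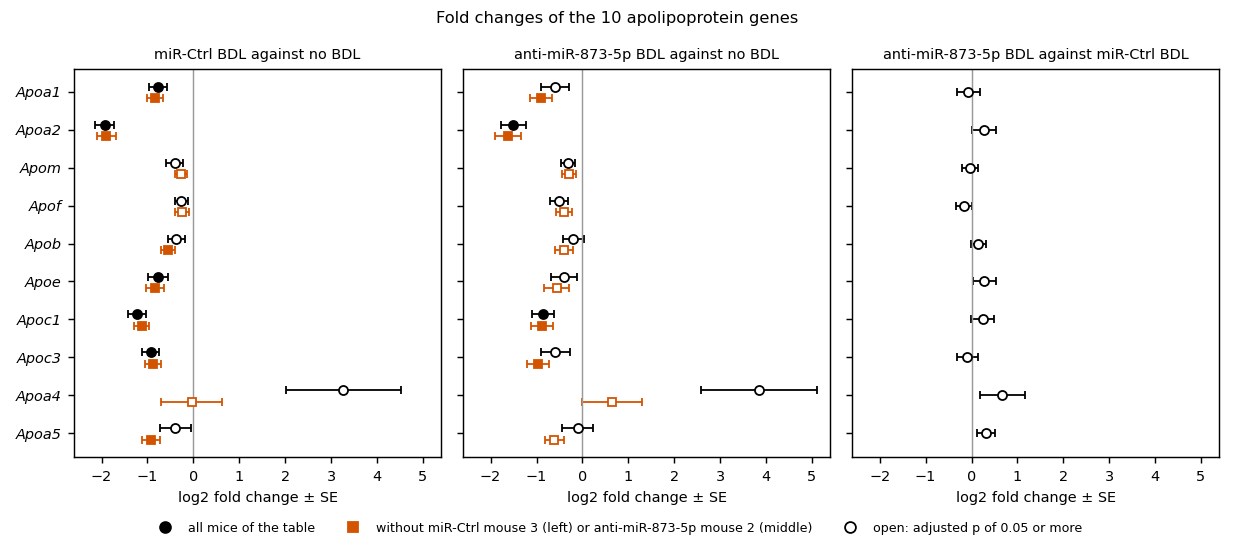
Log2 fold change with its standard error for the 10 apolipoprotein genes in the 3 comparisons, from edgeR's quasi-likelihood test, filled where the adjusted p was under 0.05, with circles for all mice of the deposited table and squares for the fit without miR-Ctrl mouse 3 (left) or anti-miR-873-5p mouse 2 (middle). Apoa2 lay furthest below 0 in both comparisons with no BDL, and the value of Apoa4 moved from 3.27 to -0.04 and from 3.85 to 0.64 when the mouse was left out.

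In Apoa4 and Apoa5, whose proteins are tied to triglyceride transport, the values turned on single mice. Apoa4 (Entrez gene 11808, chr9:46240844-46243458, + strand) encodes apoA-IV, a protein of chylomicrons, VLDL and HDL. Without BDL it had 918, 147, 138, 444 and 157 normalized counts, in miR-Ctrl BDL 571, 234, 12859 and 229 and in anti-miR-873-5p BDL 296, 19230.0, 511 and 853. Mouse 3 of the first BDL group and mouse 2 of the second were far above all others, and the remaining 6 BDL mice lay within the range of the mice without BDL, from 138 to 918.

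By raw counts, among genes shared by the tables, Apoa4 ranked 8th in miR-Ctrl mouse 3, with 154766 reads or 1.27% of the library, and 3rd in anti-miR-873-5p mouse 2, with 254119 reads or 1.98%. In the other 11 mice it ranked between 91 and 1035. The log2 fold change against no BDL was 3.27 with miR-Ctrl (SE 1.25, adjusted p = 0.0656) and 3.85 with anti-miR-873-5p (SE 1.26, adjusted p = 0.0532), and neither passed. They passed without miR-Ctrl BDL mouse 2 or miR-Ctrl BDL mouse 4 and without anti-miR-873-5p BDL mouse 1. Without the high mouse the values were -0.04 (adjusted p = 0.968) and 0.64 (adjusted p = 0.481). DESeq2's Wald test gave no adjusted p for Apoa4 in either comparison.

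Of the exon bases of Apoa4, 1266 are overlapped on the other strand by the annotated genes Gm47528 and Gm10680, and 60.9% of its 50-base windows occur in transcripts of those genes. For Apoa5 the figures are 524 bases and 16.3%, with Gm47544, and for the other 8 apolipoprotein genes 0.0% of windows were shared. The TruSeq v2 kit does not mark strand, so reads of these genes and of their antisense partners cannot be told apart.

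Apoa5 (Entrez gene 66113, chr9:46268608-46271921, + strand) encodes apoA-V, which promotes lipolysis of triglyceride-rich particles. It had 1722, 1232, 1694, 1473 and 1103 normalized counts without BDL, 613, 881, 2119.5 and 752 in miR-Ctrl BDL and 772, 2547, 1074 and 957 in anti-miR-873-5p BDL. Those 2 mice again were highest of all 13, whereas the other 6 BDL mice lay below the lowest mouse without BDL. With all mice the log2 fold change was -0.39 (SE 0.34, adjusted p = 0.411) in miR-Ctrl BDL, and without mouse 3 Apoa5 passed at -0.93 (SE 0.20, adjusted p = 0.00487). With anti-miR-873-5p it was -0.10 (adjusted p = 0.867) with all mice and -0.61 (SE 0.21, adjusted p = 0.0514) without mouse 2.

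The 2 mice shared more than Apoa4 and Apoa5. Relative to the median of the other 3 mice of the group, Apoa4 was 55.0 times as high in miR-Ctrl mouse 3 and 37.6 times in anti-miR-873-5p mouse 2, Apoa5 2.82 and 2.66 times and Apob 1.52 and 1.65 times. Apoa1 and Apoe were also above the other 3 mice in both, so that 5 of the 10 genes were. Apoc3 went opposite ways, 0.836 times the median in the first and 2.40 times in the second. Apoa2 lay within the range of the other 3 mice in both. Apom was below the other miR-Ctrl mice in mouse 3 at 0.577 times the median, and Apof below the other anti-miR-873-5p mice in mouse 2 at 0.662 times. In each BDL group the mouse with high Apoa4 also had the lowest summed levels of cholangiocyte, macrophage, stellate, endothelial and red cell markers. Other lists differed between the 2 mice. Neutrophil markers summed to 187 in miR-Ctrl mouse 3, the highest of its group, and 7.57 in anti-miR-873-5p mouse 2, the lowest. Hepatocyte markers summed to 42678 in the first, near the low end of its group, and to 83812 in the second, the highest. These are values of single mice, with no test.

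**Figure D3:**
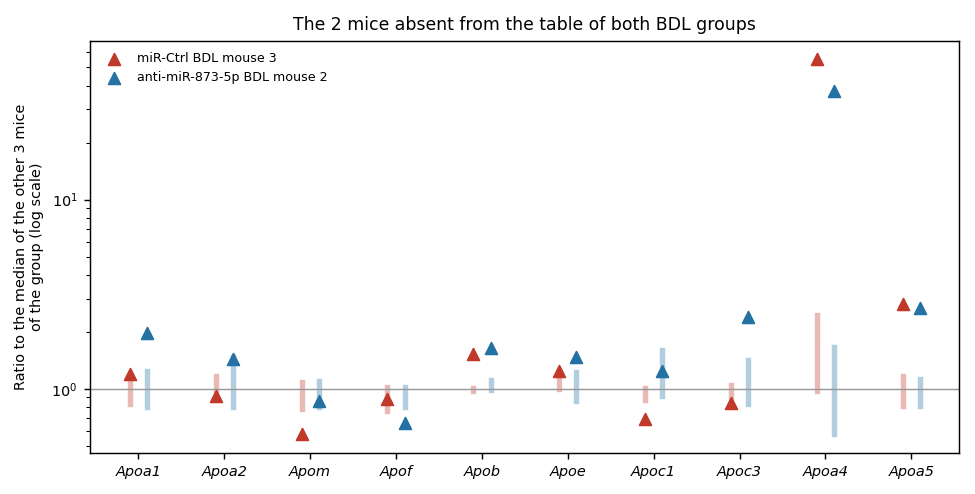
Normalized count of anti-miR-873-5p mouse 2 and miR-Ctrl mouse 3 (triangles) as a ratio to the median of the other 3 mice of the group, on a logarithmic axis, for each apolipoprotein gene, with pale bars from the lowest to the highest of those 3 mice. Apoa4 stood at 55.0 in the miR-Ctrl mouse and 37.6 in the other and Apoa5 at 2.82 and 2.66, and both values of Apoa2 lay within the bars.

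Markers of enterocytes, which also make Apoa4, and of adipocytes were read in the same mice. The origin of the Apoa4 reads was not tested. Of 6 enterocyte markers, Alpi and Sis had 0 counts in all 13 mice, Lct at most 1, Cdh17 at most 11 and Vil1 at most 34. Fabp2, made in liver as well, gave nearly all of the list's sum, which was 38.8 to 105 without BDL, 12.8 to 97.9 in miR-Ctrl BDL and 23.4 to 71.4 with anti-miR-873-5p, highest within each BDL group in the mouse with high Apoa4. Of 5 adipocyte markers, Lep had 0 counts in all mice and Adipoq, Plin1 and Retn at most 2. Only Cidec, a lipid droplet gene that liver can express, exceeded this, at 143 normalized counts in miR-Ctrl mouse 3 and 179 in anti-miR-873-5p mouse 2. In the other 11 mice Cidec was at most 11.3.

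Other genes differed in those 2 mice too, and the following, given for miR-Ctrl mouse 3 first, were chosen after their values were seen. Creb3l3, which encodes a transcription factor that activates Apoa4 and Apoa5, had 371 and 438 normalized counts in them, against 179 to 186 and 220.0 to 248 in the other 3 mice of each group and 258 to 389.9 without BDL. Hnf4a had 663 and 824, against 434 to 448 and 423 to 462 and 486 to 716 without BDL. For both genes miR-Ctrl mouse 3 thus lay within the range of the mice without BDL, and anti-miR-873-5p mouse 2 above it. Tat, the liver enzyme tyrosine aminotransferase, was 5.25 and 8.52 times the median of the other 3 mice. The part of any of these in the levels of Apoa4 and Apoa5 was not tested.

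Against miR-Ctrl BDL, anti-miR-873-5p BDL gave log2 fold changes between -0.16 for Apof and 0.67 for Apoa4, with 6 of the 10 genes above 0. The values were 0.32 for Apoa5 (SE 0.20), 0.28 for Apoe (SE 0.25), 0.27 for Apoa2 (SE 0.26), 0.24 for Apoc1 (SE 0.25) and 0.15 for Apob. Those of Apom, Apoa1 and Apoc3 were -0.03, -0.07 and -0.09, each smaller than its standard error. Adjusted p ran from 0.811 to 0.985. With standard errors of 0.17 to 0.49, differences of this size were not detectable with 3 mice per group, which does not show that the groups were alike. That 5 genes passed in one BDL group and 2 in the other against no BDL therefore does not show a difference between the BDL groups.

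The scaling of libraries bears on all of these directions. The share of all counted reads that fell on the 10 genes was 2.83% ± 0.462 without BDL, 3.02% ± 0.616 in miR-Ctrl BDL and 3.85% ± 1.47 with anti-miR-873-5p (mean ± SD). Without Apoa4 it was 2.81% ± 0.462, 2.67% ± 0.073 and 3.31% ± 0.555. For these 9 genes the range without BDL, 2.40% to 3.58%, overlapped those of both BDL groups. As shares of library totals, the inhibitor mice, from 2.81% to 4.06%, all lay above the miR-Ctrl BDL mice, from 2.61% to 2.78%, which was not tested. The summed normalized counts of all 10 genes, Apoa4 included, overlapped between these groups. They were 22061 to 39896 in miR-Ctrl BDL and 21783 to 58751.5 with the inhibitor. When libraries were scaled by their totals alone, the median of all genes moved to 0.79 in miR-Ctrl BDL and 0.82 in anti-miR-873-5p BDL on the log2 scale. Of 9635 genes called in miR-Ctrl BDL under that scaling 9360 were higher, against 2491 of 4666 with TMM. In anti-miR-873-5p BDL 10063 of 10194 were higher, against 1715 of 2823.

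Under library totals Apoa2 still fell, by 1.13 log2 units with miR-Ctrl (adjusted p = 0.00181) and by 0.72 with anti-miR-873-5p (adjusted p = 0.0263). Apoa1 and Apoe came to 0.02 and 0.02 in miR-Ctrl BDL, and Apoc1 and Apoc3 to -0.42 and -0.11, and none of the 4 passed. Apoa4 and Apof then passed as higher in miR-Ctrl BDL, and Apoa4, Apob and Apom in anti-miR-873-5p BDL. Taken relative to the median of all genes under the same scaling, Apoa1 was at -0.77, Apoe at -0.77, Apoc1 at -1.21 and Apoa2 at -1.92 in miR-Ctrl BDL, within 0.1 of their TMM values. A change of scaling moves all genes by nearly the same amount, so this closeness was built in and adds no evidence.

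**Figure D4:**
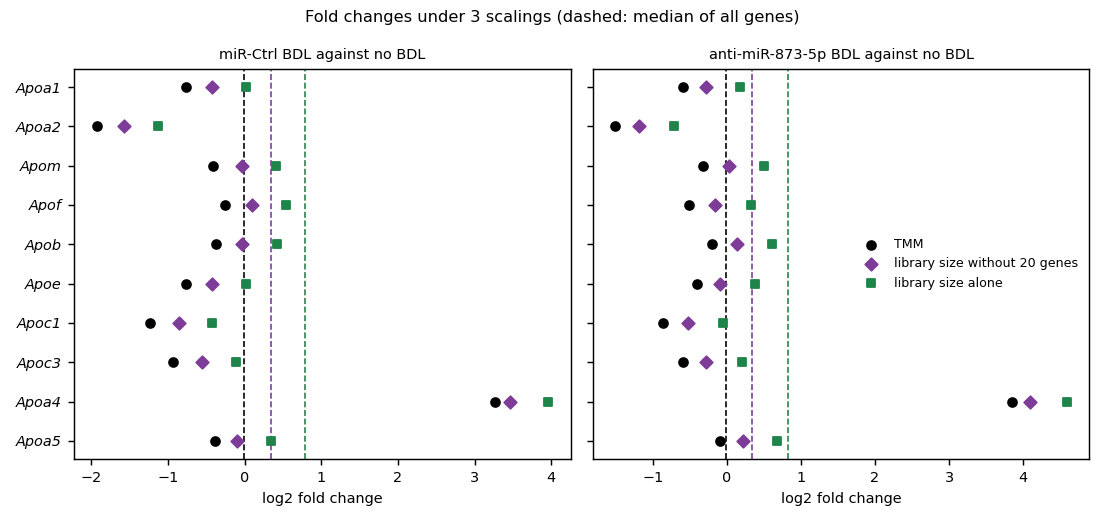
Log2 fold change of each apolipoprotein gene against no BDL with libraries scaled by TMM, by totals without the 20 genes with the most counts, or by totals alone, for miR-Ctrl BDL (left) and anti-miR-873-5p BDL (right), with the median of all genes under each scaling as a dashed line. The 10 genes and the median of all genes moved to the right together, Apoa2 stayed below 0 under all 3 scalings, and Apoa4 was the sole gene above the median of all genes under each of them.

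The other apolipoprotein genes went both ways. Of 12 listed, 11 were tested in miR-Ctrl BDL, where 2 rose and 3 fell, and 10 in anti-miR-873-5p BDL, where 1 rose and 1 fell. Their median log2 fold changes were -0.09 and -0.32, and without anti-miR-873-5p mouse 2 a second gene fell, Apoc4, by 0.71 (adjusted p = 0.00439). Clu, which encodes clusterin or apoJ, rose by 1.75 log2 units with miR-Ctrl (adjusted p = 0.000689) and by 1.50 with anti-miR-873-5p (adjusted p = 0.00575). Apoh, which encodes a phospholipid-binding plasma protein, fell by 1.01 (adjusted p = 0.001) with miR-Ctrl and fell by 0.78 (adjusted p = 0.0172) with the inhibitor, a call lost without anti-miR-873-5p BDL mouse 3 or 4. Apoc4 fell by 0.84 with miR-Ctrl (adjusted p = 0.00347), and Apol7a by 1.07 (adjusted p = 0.0152).

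Apoc2 encodes the activator of lipoprotein lipase and rose by 1.32 with miR-Ctrl (adjusted p = 0.0123), or by 0.81 without mouse 3. With anti-miR-873-5p its value was 1.23 (adjusted p = 0.0647), and 0.42 (adjusted p = 0.0768) without mouse 2. Like Apoa4 and Apoa5 it was highest in the 2 mice, miR-Ctrl mouse 3 and then anti-miR-873-5p mouse 2, at 854 and 987 normalized counts, against 211 to 389.5 and 208 to 294 in the other mice of their groups. Apol6, Apol9a, Apol9b, Apol10b, Apon and Saa4 did not pass in any comparison in which they were tested, and Apol9a and Apol9b are near-identical copies whose reads may be split between them.

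The genes that load and secrete apoB particles were tested beside Apob. Where a gene of these lists has a pair of values, the one with miR-Ctrl comes first. Of 15, 2 rose and 4 fell in miR-Ctrl BDL and 4 fell in anti-miR-873-5p BDL, with medians of -0.26 and -0.22. Without miR-Ctrl mouse 3, 1 rose and 4 fell. Dgat2, which makes triglyceride, fell by 1.04 (adjusted p = 0.00245) with miR-Ctrl and fell by 1.04 (adjusted p = 0.00185) with the inhibitor, and Sar1b, a GTPase of vesicle export, had -0.97 and -0.89 (adjusted p = 0.00152 and 0.0225). Apobec1, which edits Apob mRNA, rose by 1.13 with miR-Ctrl (adjusted p = 0.0165), and its cofactor A1cf fell by 0.78 with anti-miR-873-5p (adjusted p = 0.0221). The second call of Sar1b was lost without no BDL mouse 1 or anti-miR-873-5p BDL mouse 3 or 4, and that of A1cf without anti-miR-873-5p BDL mouse 3 or 4. Mttp, which transfers lipid to apoB, had -0.57 (adjusted p = 0.0517) and -0.68 (adjusted p = 0.0572).

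Of 9 genes of HDL formation and remodelling, 1 rose and 3 fell in miR-Ctrl BDL, and 1 rose and 1 fell in anti-miR-873-5p BDL, or 3 fell without mouse 2. The medians were -0.22 and -0.25. Pon1, an HDL enzyme, fell by 2.14 (adjusted p = 0.000511) with miR-Ctrl and fell by 1.48 (adjusted p = 0.00738) with the inhibitor, and Lipg, endothelial lipase, by 2.65 with miR-Ctrl (adjusted p = 0.00379). Abcg1, a cholesterol exporter also found in macrophages, rose by 1.67 (adjusted p = 0.0134) with miR-Ctrl and by 1.57 (adjusted p = 0.0247) with the inhibitor, where the call was lost without no BDL mouse 1, 2, 3 or 4 or anti-miR-873-5p BDL mouse 3 or 4. The exporter Abca1 had 0.42 and -0.20, the enzyme Lcat -0.22 and -0.25 and the HDL receptor Scarb1 0.36 and 0.32, and none of the 3 passed. Without miR-Ctrl mouse 3 the value of Abca1 turned to -0.09 (adjusted p = 0.595). Without the 2 mice Lcat passed at -0.46 (adjusted p = 0.0182) and -0.51 (adjusted p = 0.0487). The 3 acute-phase genes Saa1, Saa2 and Saa3, whose proteins displace apoA-I from HDL, did not pass with all mice, and mouse 5 of the no BDL group decided this. Saa1 had 6802 normalized counts in that mouse, against 47.5 to 98.01 in the other 4 mice without BDL, 437 to 5291 in miR-Ctrl BDL and 135 to 839 in anti-miR-873-5p BDL. Saa2 had 7219 in it, against 23.0 to 45.2, 367 to 4900.1 and 97.9 to 571. The log2 fold changes of Saa1 were 0.90 (adjusted p = 0.682) and -1.28 (adjusted p = 0.584) with all mice, and 5.33 (adjusted p = 0.000843) and 3.16 (adjusted p = 0.00497) without mouse 5. Without it Saa2 and Saa3 passed as higher too, at 6.13 and 5.62 with miR-Ctrl (adjusted p = 0.000631 and 0.00445) and at 3.60 and 2.86 with the inhibitor (adjusted p = 0.00326 and 0.00222). Saa1 and Saa2 are close copies whose reads may be split between them. Of the 10 apolipoprotein genes, 5 fell with miR-Ctrl and 2 with the inhibitor also without this mouse.

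Of the receptors, lipases and their regulators, 2 of 14 tested rose and 4 fell in miR-Ctrl BDL, and 2 of 15 rose and 3 fell in anti-miR-873-5p BDL, with medians of -0.22 and -0.16. Without the 2 mice, 3 rose and 5 fell in the first comparison, and 3 rose and 2 fell in the second. Lpl, lipoprotein lipase, rose by 2.52 and 2.01 (adjusted p = 0.00677 and 0.0121), and Sdc1, a remnant receptor, by 1.08 and 0.89 (adjusted p = 0.000749 and 0.00918). Angptl8, an inhibitor of lipolysis, fell by 2.41 with miR-Ctrl (adjusted p = 0.0244). The call of Angptl8 was lost without no BDL mouse 2 or miR-Ctrl BDL mouse 2 or 4.

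Among 17 transcription factors of apolipoprotein genes, 10 fell in miR-Ctrl BDL and 4 in anti-miR-873-5p BDL, and 0 rose, with medians of -0.64 and -0.35. The largest falls in miR-Ctrl BDL were those of Onecut1 with -2.21 (adjusted p = 0.004), Ppara with -1.86 (adjusted p = 0.00133) and Nr1d1 with -1.47 (adjusted p = 0.0145). With anti-miR-873-5p they were Onecut1 with -1.78 (adjusted p = 0.0276), Cebpa with -0.76 (adjusted p = 0.0471) and Foxa1 with -0.62 (adjusted p = 0.0478). The second call of Onecut1 was lost without no BDL mouse 4 or anti-miR-873-5p BDL mouse 1 or 3. The call of Foxa1 held in 1 of 9 fits that left out 1 mouse, the one without no BDL mouse 3, and that of Cebpa in 2, without no BDL mouse 5 or anti-miR-873-5p BDL mouse 1. Hnf4a had -0.24 (adjusted p = 0.318) and -0.12 (adjusted p = 0.735), and without miR-Ctrl mouse 3 it passed at -0.41 (adjusted p = 0.0435). Without anti-miR-873-5p mouse 2 its second value was -0.40 (adjusted p = 0.0846). In none of these lists did a gene pass between the 2 BDL groups in edgeR's test.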

How the data were processed

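Liver RNA of 13 mice was sequenced as single reads of 50 nt from TruSeq RNA v2 libraries. The authors deposited raw counts of reads per Entrez gene in 1 table per comparison, made with CASAVA 1.8.2, Trim Galore and TopHat on mm10 (GRCm38) per the labels, and the counting program is not given in the sources used here. All value columns were used, 0 were left out, and 99.8% of row numbers matched a RefSeq symbol. The labels give no pairing of mice.

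Tests were run with edgeR 4.0.16 and limma 3.58.1 in R 4.3.3 (filterByExpr, TMM, quasi-likelihood test, Benjamini-Hochberg adjustment at 0.05), with DESeq2 1.42.0 as an alternative. Each comparison used the mice of its own table. P-values measure the spread between the mice sequenced. Levels over the 13 mice rest on 22246 genes whose counts are the same in every table and on the 10 apolipoprotein genes, of which Apoc1 and Apoc3 differed by at most 0.00472% and 1.18%. Standard errors were taken from the size of the log2 fold change and the test's F. Depth was 12185333 to 19689037 counts per mouse.

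The 10 genes, the gene lists and the alternatives were chosen with earlier results of these data known. Named beside the 10 are other apolipoprotein genes, the 3 genes of each list with the largest change among those called, and Mttp, Abca1, Lcat, Scarb1 and Hnf4a, and some genes under this rule are not reported here. The lists hold markers of hepatocytes, cholangiocytes, macrophages, enterocytes and adipocytes, among others. Gene and promoter positions come from GENCODE M21 and RefSeq on GRCm38. Motifs were searched on both strands.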

Additional observations from a re-analysis of the deposited data

Results flagged for a closer look

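Dixon's test was applied to the highest and the lowest mouse of each of the 10 genes in each group, 30 sets of 4 or 5 values, and 6 values stood apart. About 1 in 20 groups is marked by chance. Apoa4 had 12859 normalized counts in miR-Ctrl mouse 3, against 229 to 571 in the other 3 mice, and 19230.0 in anti-miR-873-5p mouse 2, against 296 to 853. Apoa5 had 2547 in anti-miR-873-5p mouse 2, against 772 to 1074, and Apob had 3462 in miR-Ctrl mouse 3, against 2211 to 2286. Of the 6 values, 4 belong to these 2 mice.

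The other values belong to mouse 5 of the no BDL group, in which Apof had 819 normalized counts, against 577 to 644 in the other 4 mice, and Apom 247, against 183 to 196. The same mouse had 6802 normalized counts of the acute-phase gene Saa1, against 47.5 to 98.01 in the other 4 mice. No cause of any of these values was tested.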

How the results depend on the processing

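Of 490 values of single genes under alternatives, 421 kept their direction and their side of the threshold, 19 passed newly, 14 no longer passed and 36 changed sign. Under library totals alone 3 of the 10 genes passed in miR-Ctrl BDL against no BDL (main: 5) and 4 in anti-miR-873-5p BDL (main: 2), with medians of 0.18 and 0.35 in place of -0.59 and -0.46. The values that changed sign were 0.017, 0.35, 0.42, 0.023, 0.54 and 0.41 for Apoa1, Apoa5, Apob, Apoe, Apof and Apom with miR-Ctrl. With the inhibitor they were 0.18, 0.67, 0.61, 0.20, 0.38, 0.32 and 0.50 for Apoa1, Apoa5, Apob, Apoc3, Apoe, Apof and Apom. With the 20 genes of most counts left out of the totals the medians were -0.26 and -0.12, Apof was 0.096 in miR-Ctrl BDL, and Apoa5, Apob and Apom were 0.21, 0.13 and 0.02 in anti-miR-873-5p BDL. The median of all genes was -0.011 and -0.007 with TMM, which is built to keep most genes near 0. It was 0.79 and 0.82 under totals alone, and 0.34 in both comparisons without the 20 genes. Which scaling is nearer to the true levels was not tested.

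With mouse number as a replicate block 5, 2 and 0 genes passed, with medians of -0.71, -0.44 and 0.23. Deviations of same-numbered mice correlated from -0.396 to 0.578. Mice of different numbers were not compared, so these values cannot decide whether the numbers pair the mice. In 1 fit without anti-miR-873-5p mouse 2 and miR-Ctrl mouse 3, chosen after seeing the data, the median in miR-Ctrl BDL was -0.85, 5 genes passed in anti-miR-873-5p BDL, and Apoa4 was -0.047 in miR-Ctrl BDL. At an adjusted p of 0.1, 4 genes passed in anti-miR-873-5p BDL. Leaving out 1 mouse at a time gave 4 to 7 genes and medians of -0.84 to -0.53 with miR-Ctrl, 1 to 4 genes and -0.58 to -0.35 in anti-miR-873-5p BDL, and medians of -0.04 to 0.21 between the BDL groups. Over all genes, 3775 to 5710 passed in these fits with miR-Ctrl and 1261 to 4317 in anti-miR-873-5p BDL. Apoa4 ranged from -0.039 to 3.97 in miR-Ctrl BDL and Apoa5 from -0.61 to 0.088 with the inhibitor. Between the BDL groups Apoa1 ranged from -0.25 to 0.078, Apoa2 from -0.017 to 0.45, Apoc1 from -0.058 to 0.39, Apoc3 from -0.34 to 0.076 and Apom from -0.15 to 0.097. There, all 13 mice in 1 fit gave 0.18, 0.36 and 0.09 for Apoa1, Apoc3 and Apom, all 4 mice of each group 0.18, 0.36 and 0.088, and library totals 0.0048 for Apom. The cause of these changes was not tested.

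Over all genes, library totals called 9635 and 10194 genes against no BDL, in place of 4666 and 2823. Between the BDL groups DESeq2 called 29 genes and all 4 mice of each group 28, in place of 0. With 3 to 5 mice per group, changes of about the standard error of a gene could not be detected.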
